A study of Mus musculus with 2 samples.

Results

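The 10 genes described here encode the subunits of the transcription factor NF-κB and proteins that restrain it or modify its action. They were taken by symbol from the count tables, and all 10 were found among 32285 genes. The subunit genes are Nfkb1, Nfkb2, Rel, Rela and Relb. The genes grouped here as inhibitors are Nfkbia, Nfkbib, Nfkbid, Nfkbiz and Tnfaip3. Their RNA was compared between control and 4E-BP1-cKO spinal microglia and across the states of these cells. 4E-BP1, the product of Eif4ebp1, represses cap-dependent translation, and the libraries bear on whether its loss in microglia goes with a changed transcriptome.

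NF-κB works as a pair of subunits, which are p50 and p52 (made from the precursors encoded by Nfkb1 and Nfkb2), RelA, c-Rel and RelB. In a resting cell IκBα and IκBβ, the products of Nfkbia and Nfkbib, keep the pair in the cytoplasm. Signals from Toll-like and cytokine receptors cause IκBα to be degraded, and the freed pair transcribes chemokine and cytokine genes together with Nfkbia and Tnfaip3, whose products end the response. A20, the product of Tnfaip3, removes ubiquitin chains from the receptor complexes. IκBζ (Nfkbiz) and IκBNS (Nfkbid) act in the nucleus, where they modify the transcription of selected target genes. Inhibitor is thus a group label here, and the summed RNA of the group does not measure restraint of NF-κB.

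There was 1 library per genotype. Both came from male mice aged 8 to 10 weeks, from which microglia were obtained by collagenase IV digestion of the lumbar spinal cord, a Percoll gradient and a sort for CD45lo, CD11b+ and CX3CR1+ cells. The cells thus went through a warm enzyme digestion and a sort before capture. RNA changed by this handling cannot be told apart here from RNA states in the animal. The control library is labelled WT, while the legend of the study gives its mice as Eif4ebp1 fl/fl. The 4E-BP1-cKO library came from Eif4ebp1 fl/fl:TMEM119CreERT2 mice, in which Cre is driven by the Tmem119 promoter and is induced by 4-hydroxytamoxifen (4-OHT), given in the study from P4 to P9. The number of mice behind each library is not given in these sources. Whether the control mice lacked Cre, as the legend implies, decides if the genotypes also differ by the Cre allele, and these effects cannot be told apart here.

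Barcodes needed more than 300 genes, and less than 5% of their UMIs on mitochondrial genes, to count as cells, which gave 1147 control cells with 4803562 UMIs and 445 4E-BP1-cKO cells with 1734332 UMIs. A UMI (unique molecular identifier) stands for 1 captured RNA molecule. The libraries shared 0 barcodes. The median cell had 3053 UMIs in the control and 2776 in the 4E-BP1-cKO library. Ribosomal protein genes took a median of 2.30% of a cell's UMIs in the control and 3.56% in the 4E-BP1-cKO library. A list of 25 immediate early genes (Fos, Jun, Egr1 and others that respond rapidly to a stimulus, and the stress genes Hspa1a, Hspa1b and Ppp1r15a) took 2.65% of all UMIs in the control and 3.15% in the 4E-BP1-cKO library. Of 10 microglial markers, 1 differed by more than 1.5-fold, which was Tmem119, lower by 1.60 on the log2 scale in the 4E-BP1-cKO library (ratio 4E-BP1-cKO over control). The markers summed to 10464 CPM (the UMIs of a gene as a share of all UMIs of the library, scaled to 1 common total) in the control and 10122 CPM in the 4E-BP1-cKO library. At least 3 markers of another cell type were found in 20 control and 3 4E-BP1-cKO cells. The summed markers of endothelial cells had 81.6 CPM in the control and 30.6 CPM in the 4E-BP1-cKO library, those of oligodendrocytes 88.3 and 141 CPM, and those of monocytes 12.3 and 2.88 CPM. Of 6 NK cell markers, 4 were at 0 in both libraries. The targeted gene Eif4ebp1 had 19.8 CPM in the control (95 UMIs) and 29.4 CPM in the 4E-BP1-cKO library (51 UMIs), a ratio of 1.49 (1.04 to 2.11), so that its level was not lower in the library labelled as the knockout. The reads of these 3′ libraries were counted per gene and do not check the deletion. The paper reports, from immunostaining, that the protein encoded by this gene was reduced in spinal microglia of the knockout mice.

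Several of these genes, subunits and inhibitors alike, carry NF-κB binding letters near their own start sites, and stretches that hold them are shown here. RefSeq promoter windows of GRCm38.p6 (250 bases before to 50 after a start site) were given for 7 of the 10 genes and searched on both strands for the 10-base NF-κB consensus. A match was present in 8.46% of all 32851 windows, and in at least 1 window of 9.55% of the 27025 genes with one. Of the 7 genes, 5 had at least 1 window with a match, namely Nfkb2, Rel, Nfkbia, Nfkbid and Tnfaip3. Rela and Nfkbib had none in this window. Nfkb1, Relb and Nfkbiz had no window. The stretches below run 5′ to 3′ along the strand of the gene, with the matching letters in capitals, and lie upstream of a RefSeq start site by the number of bases given. The flanks of the Nfkb2 and Tnfaip3 stretches closest to the start reach into the first exon.
Nfkbia, 29 bases upstream, chr12:55492657-55492686, minus strand: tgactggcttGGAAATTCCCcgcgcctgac
Tnfaip3, 125 bases upstream, chr10:19015516-19015545, minus strand: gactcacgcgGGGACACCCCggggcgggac
Tnfaip3, 12 bases upstream, chr10:19015403-19015432, minus strand: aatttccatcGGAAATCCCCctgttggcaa
Nfkbid, 226 bases upstream, chr7:30422170-30422199, plus strand: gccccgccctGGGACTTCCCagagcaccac
Nfkbid, 181 bases upstream, chr7:30422215-30422244, plus strand: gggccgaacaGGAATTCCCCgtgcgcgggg
Rel, 92 bases upstream, chr11:23771042-23771071, minus strand: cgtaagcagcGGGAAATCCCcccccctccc
Nfkb2, 39 bases upstream, chr19:46304688-46304717, plus strand: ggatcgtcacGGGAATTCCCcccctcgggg
Nfkb2, 11 bases upstream, chr19:46304716-46304745, plus strand: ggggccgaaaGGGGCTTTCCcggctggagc
A match is a description of the letters and does not show that NF-κB was bound there. In Nfkbid, 1 of 3 windows held a match, and in Nfkb2, 3 of 3 windows did.

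Among the subunits, Rel and Nfkb1 made up most of the RNA. Rel had 1083 CPM in the control library (95% interval 1054 to 1113) and 1194 CPM in the 4E-BP1-cKO library (1143 to 1246). Nfkb1 had 976 CPM (949 to 1005) and 1112 CPM (1063 to 1162). Together they held 86.4% of the subunit UMIs in the control and 86.8% in the 4E-BP1-cKO library. Relb, the partner of p52 in the noncanonical pathway, followed at 207 CPM and 221 CPM in the same order of libraries. Rela, which encodes the classical activating subunit p65, had 65.0 CPM (57.9 to 72.6) and 73.2 CPM (61.0 to 87.1). Nfkb2 was the lowest at 52.9 CPM (46.6 to 59.8) and 55.4 CPM (44.8 to 67.6), and its interval overlapped that of Rela in both libraries. These are UMI counts of 3′ libraries without a length correction, and genes can differ in how well they are captured. Whether intronic reads were counted is not given either. The order of different genes is thus an order of UMIs and may not be that of their mRNA.

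Of the inhibitors, Nfkbia was the highest of all 10 genes, with 1302 CPM in the control (1270 to 1335) and 2152 CPM in the 4E-BP1-cKO library (2083 to 2222). Nfkbiz had 770 CPM (745 to 795) and 1042 CPM (994 to 1091). Tnfaip3 had 703 CPM (679 to 727) and 795 CPM (754 to 838). Nfkbid stood far below them at 224 CPM and 284 CPM. Nfkbib was the lowest inhibitor at 86.2 CPM (78.1 to 94.9) and 124 CPM (108 to 142). In both libraries the order over all 10 genes was Nfkbia, Rel, Nfkb1, Nfkbiz, Tnfaip3, Nfkbid, Relb, Nfkbib, Rela and Nfkb2. Neighbours whose counting intervals overlapped were Nfkbid and Relb as well as Rela and Nfkb2 in the control, and Rel and Nfkb1, Nfkb1 and Nfkbiz, and Rela and Nfkb2 in the 4E-BP1-cKO library.

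**Figure D1:**
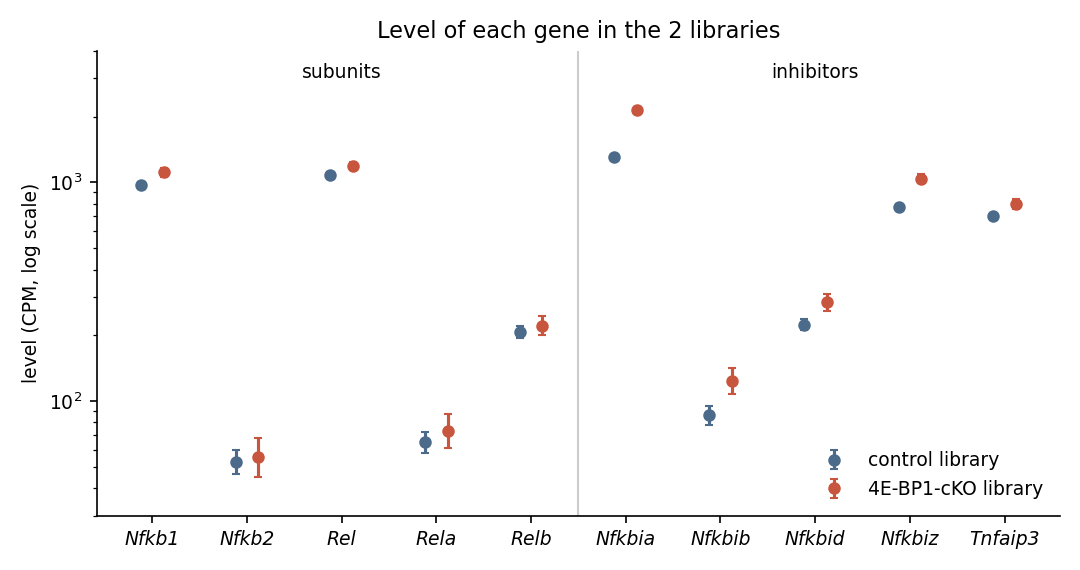
Level of each gene in CPM (log axis) in the control library and the 4E-BP1-cKO library, with exact 95% Poisson intervals that cover counting error only. Every gene was higher in the 4E-BP1-cKO library, and the gap was widest for Nfkbia (1302 and 2152 CPM).

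At least 1 subunit UMI was found in 91.3% of control and 89.0% of 4E-BP1-cKO cells, and at least 1 inhibitor UMI in 94.0% and 93.3%. The median cell held UMIs of 5 of the 10 genes in each library. UMIs of at least 8 of them were found in 15.5% of control and 20.4% of 4E-BP1-cKO cells, and 2.0% and 2.7% of the cells had none. Cells differed in depth, so shares were also taken after each cell was thinned to 872 UMIs, a depth that 89 cells of the control and 70 of the 4E-BP1-cKO library did not reach. Nfkbia was then found in 48.5% of control cells (45.4 to 51.6%) and 63.2% of 4E-BP1-cKO cells (58.1 to 68.1%), against 74.5% and 78.2% before thinning. Nfkbiz was found in 40.0% (37.0 to 43.0%) and 52.0% (46.8 to 57.2%) of the thinned cells, against 67.0% and 71.7% before. Nfkb1 gave 42.3% (39.3 to 45.4%) and 52.0% (46.8 to 57.2%), against 72.7% and 72.4% before. Rel (51.6% and 56.5%) and Tnfaip3 (37.8% and 41.6%) had overlapping intervals after thinning. So did Nfkb2, Rela, Relb, Nfkbib (7.1% and 10.7%) and Nfkbid (16.4% and 20.8%). The share of all genes with intervals apart was not taken, so these shares are descriptions. No cell type that lacks these genes was present in number, and the share that free RNA could give was not estimated.

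Detection of one gene was also set beside detection of another in the thinned cells. In the control, Rel was detected in 59.6% of the 448 cells with an Nfkb1 UMI (54.9 to 64.2%) and in 45.7% of the 610 cells without one (41.7 to 49.8%). In the 4E-BP1-cKO library these shares were 61.0% of 195 cells and 51.7% of 180 cells, with overlapping intervals. Nfkbiz was detected in 46.4% of the 513 control cells with an Nfkbia UMI and in 33.9% of the 545 without one, and in 59.1% of 237 and 39.9% of 138 4E-BP1-cKO cells, with intervals that did not overlap in either library. Tnfaip3 was detected in 43.1% and 32.8% of the control cells with and without Nfkbia, with intervals apart. In the 4E-BP1-cKO library these shares were 45.6% and 34.8%, with overlapping intervals. Beside Nfkbiz, the intervals of Tnfaip3 did not overlap in either library. Pairs of a subunit and an inhibitor gave mixed values too. Nfkbia was detected in 53.5% of the control cells with a Rel UMI and 43.2% of those without, and the intervals did not overlap. Beside Nfkb1 the shares were 52.2% and 45.7%, with overlapping intervals. In the 4E-BP1-cKO library Nfkbia was detected in 65.1% and 60.7% of the cells with and without Rel, and in 64.1% and 62.2% of those with and without Nfkb1, with overlapping intervals for both. Tnfaip3 was detected in 42.1% and 33.2% of the control cells with and without Rel, with intervals apart. In the 4E-BP1-cKO library these shares were 41.5% and 41.7%. Pairs of genes outside the 10 were not set beside these. Cells of 1 library share their source, and these shares are descriptions.

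Between the libraries, all 10 genes had a higher level in the 4E-BP1-cKO library over all cells. So did 5169 of the 11784 genes with at least 20 UMIs. For Nfkb2 and Relb the sign turned under some other settings (log2 ratios of -0.22 and -0.01 as means over clusters). The summed subunits had 2384 CPM in the control (2341 to 2428) and 2655 CPM in the 4E-BP1-cKO library (2579 to 2733), a log2 ratio of 0.16. The summed inhibitors had 3085 CPM (3035 to 3135) and 4397 CPM (4298 to 4496), a log2 ratio of 0.51. There were thus 1.29 inhibitor UMIs per subunit UMI in the control (1.26 to 1.33) and 1.66 in the 4E-BP1-cKO library (1.60 to 1.72). Nfkbia alone gave 42.2% and 48.9% of the inhibitor UMIs. Without Nfkbia there were 0.748 and 0.845 inhibitor UMIs per subunit UMI, on the other side of 1, and without Rel 2.37 and 3.01. Without the cells that held 3 or more markers of another type, the log2 ratios were 0.14 for the subunits and 0.51 for the inhibitors. With 1 library per genotype no test was possible, and the intervals leave out the spread between mice, sorts and captures.

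Nfkbia was the only gene of the 10 past 1.5-fold, with a ratio of 1.65 (1.59 to 1.72, log2 0.72). Over all 11784 genes with at least 20 UMIs, 4.32% were past 1.5-fold higher and 11.3% past 1.5-fold lower in the 4E-BP1-cKO library, 15.6% in all. A count of 1 of 10 is too small to set apart from that background. The median log2 ratio of those genes was -0.05. The remaining inhibitors had ratios of 1.44 for Nfkbib (1.21 to 1.70), 1.35 for Nfkbiz (1.28 to 1.43), 1.27 for Nfkbid (1.14 to 1.41) and 1.13 for Tnfaip3 (1.06 to 1.21). The subunits lay between 1.05 for Nfkb2 (0.82 to 1.33) and 1.14 for Nfkb1 (1.08 to 1.20). The intervals of Nfkb2, Rela and Relb included 1.

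The cells of each library were also grouped by clustering on all other genes, with the 10 genes taken out so that none of them defined a group. This gave 9 clusters, numbered by size, of which 7 held at least 20 cells in each library. They were not named as cell types. Since genes that vary with the 10 were still used, the levels by cluster are descriptions. The summed subunits and the summed inhibitors peaked in different clusters, but in the control the inhibitors without Nfkbia were highest in cluster 2 (2382 CPM), like the subunits. The summed subunits were highest in cluster 2 (4957 CPM, 4801 to 5117) and lowest in cluster 6 (1151 CPM, 1085 to 1220), 4.31-fold apart. With the libraries pooled, the summed inhibitors were highest in clusters 5 (4724 CPM, 4609 to 4841) and 3 (4625 CPM, 4513 to 4738), whose intervals overlapped. They were lowest in cluster 6 (1645 CPM, 1566 to 1726), and their spread was 2.87-fold. In the 4E-BP1-cKO library alone they had 5880 CPM in cluster 3 (5655 to 6112), 5543 CPM in cluster 4 (5084 to 6033) and 5284 CPM in cluster 5 (5065 to 5510).

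Cluster 2 held 274 cells, with a median of 2287 UMIs and a ribosomal protein share of 1.34%. Its leading genes were Bicdl2, Slc24a1, Raver2 and Gm16853, followed by Il10. With the libraries pooled, all 5 subunits had their highest level there. The intervals of Rela and Nfkb2 overlapped those in clusters 5, 7 and 8, and that of Relb overlapped its interval in cluster 8. In the 4E-BP1-cKO library alone, Rela had 125 CPM in cluster 8 (4 UMIs) and 104 CPM in cluster 5 against 101 CPM in cluster 2. Relb had 530 CPM in cluster 8 (17 UMIs) against 358 CPM in cluster 2. The pooled levels in cluster 2 were as follows. Nfkb1 reached 2405 CPM, Rel 1966 CPM, Relb 376 CPM, Rela 106 CPM and Nfkb2 104 CPM. Nfkbia stayed at 926 CPM in the same cells, so that cluster 2 had 0.67 inhibitor UMIs per subunit UMI (0.64 to 0.71), the lowest of the 9 clusters. Tnfaip3 was the inhibitor that also peaked in cluster 2, at 1083 CPM. The value was below 1 in each library, with 0.61 (0.58 to 0.65) in the control and 0.83 (0.76 to 0.91) in the 4E-BP1-cKO library.

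Cluster 3 had high summed inhibitors, while its summed subunits (2079 CPM) lay in the middle of the range. Its 236 cells had Fos, Ccl3 and the heat shock genes Hspa1a and Hspa1b among the leading genes, a median of 5544 UMIs and an immediate early gene share of 4.28%, the highest of the 9 clusters. Nfkbia reached 2486 CPM there while Nfkb1 had 681 CPM and Rel 1051 CPM. The cluster held 2.22 inhibitor UMIs per subunit UMI (2.13 to 2.32), with 2.002 in the control and 2.68 in the 4E-BP1-cKO library. Cluster 5, led by Cxcl2 and the metallothionein genes Mt1 and Mt2, was high in both roles. With the libraries pooled it had the highest Nfkbiz (1264 CPM) and Nfkbib (159 CPM). In the 4E-BP1-cKO library alone, Nfkbiz had 1437 CPM in cluster 4 and 1386 CPM in cluster 5. The pooled level of Nfkbia in cluster 5 was 2308 CPM and that of Nfkb1 1550 CPM. The cluster held 1.44 inhibitor UMIs per subunit UMI (1.38 to 1.49). Cluster 4, led by Cxcl10 and shallow at a median of 763 UMIs, had 1.92 (1.76 to 2.11).

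Cluster 6 was low in both roles, with 394 CPM of Nfkb1, 563 CPM of Rel and 586 CPM of Nfkbia. Its 150 cells were deep, with a median of 6309 UMIs, and their immediate early gene share was 1.82%. Cluster 1, led by Gm35188, had the lowest Nfkbia (519 CPM, 472 to 570) and an early gene share of 1.79%. Its Nfkbia interval overlapped that of cluster 6 (539 to 635). Clusters 8 and 9 held 18 and 17 4E-BP1-cKO cells. Cluster 8, led by Bag3 and Hspd1, had 0.99 inhibitor UMIs per subunit UMI (0.87 to 1.14), and 0.79 (0.59 to 1.04) in its 4E-BP1-cKO cells. Cluster 9, led by Apoe among others and with a ribosomal protein share of 18.5%, had 2.52 (2.23 to 2.86), the highest value.

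**Figure D2:**
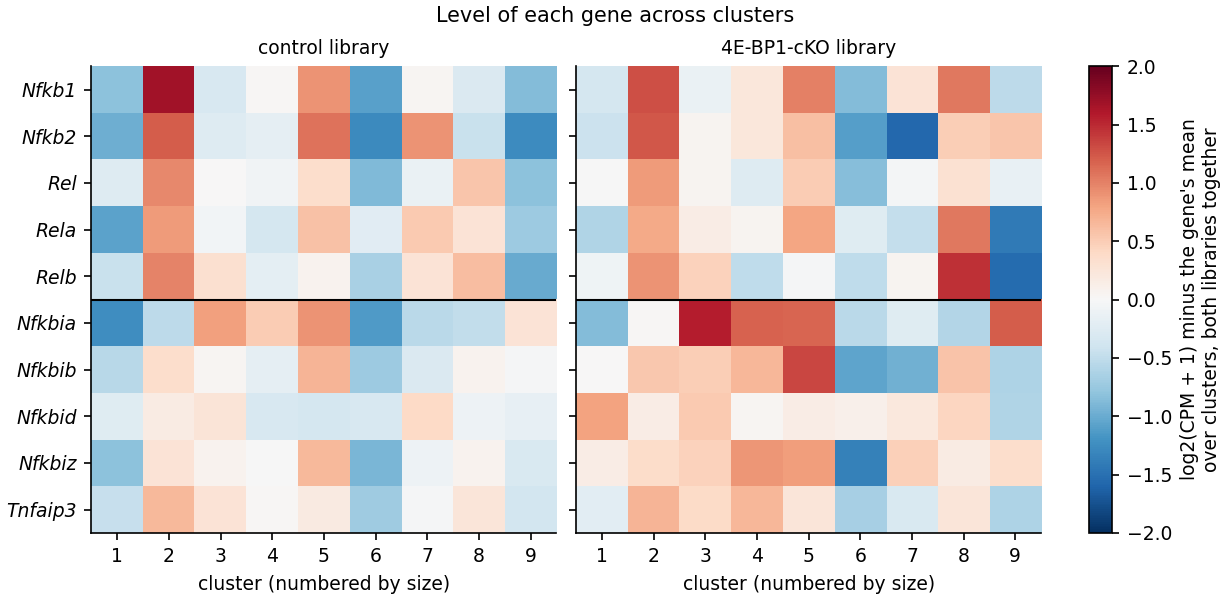
Level of each gene in 9 clusters of each library, as log2(CPM + 1) minus the mean of that gene over the clusters of both libraries together (color). The upper block of subunits is reddest in cluster 2, apart from Rela and Relb in the 4E-BP1-cKO library. The row of Nfkbia is reddest in clusters 3, 4, 5 and 9.

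The fold between the highest and the lowest of the 7 clusters was 6.11 for Nfkb1 (5.47 to 6.83), 5.74 for Nfkb2, 4.79 for Nfkbia (4.33 to 5.30), 3.55 for Rela, 3.49 for Rel (3.16 to 3.85), 3.29 for Nfkbib, 3.23 for Nfkbiz, 3.001 for Relb and 2.57 for Tnfaip3. Nfkbid varied least, by 1.51-fold (1.19 to 1.90). More than 2-fold was thus passed by 9 of the 10 genes, beside 71.6% of the 3300 genes with at least as many UMIs as Nfkb2, the least counted of the 10, and a median of 2.40-fold among them. Nfkb1 had its highest level in cluster 2 and its lowest in cluster 6 in each library taken alone, and so did Rel.

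**Figure D3:**
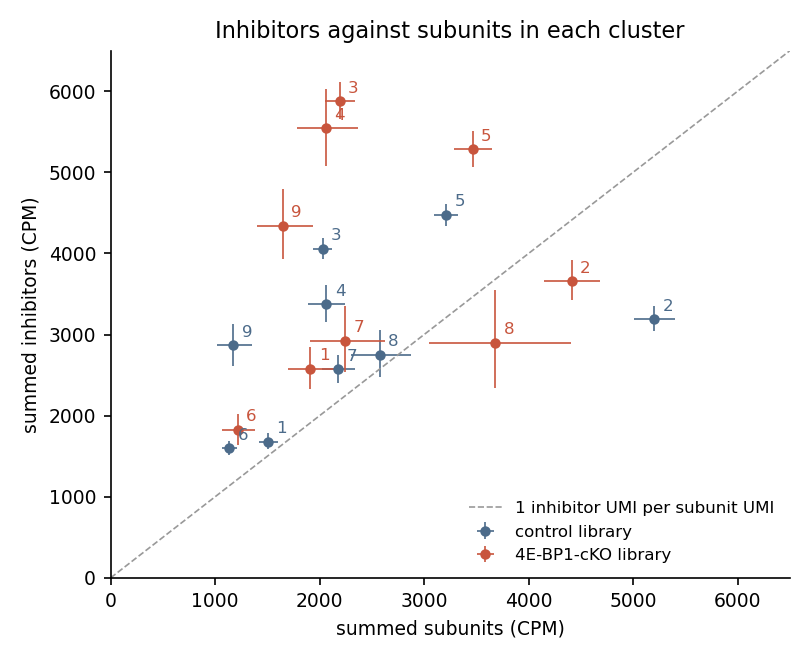
Summed inhibitors against summed subunits (both in CPM, with exact 95% Poisson intervals) in each numbered cluster of each library. The dashed line marks 1 inhibitor UMI per subunit UMI. Cluster 2 lies below the line in both libraries, cluster 8 does so in the 4E-BP1-cKO library, and clusters 3, 4 and 9 lie furthest above it.

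Across the 7 clusters, Rel followed the other large subunit more closely than the inhibitors. The Pearson correlation of log2 CPM of Rel with Nfkb1 was 0.95 in the control and 0.91 in the 4E-BP1-cKO library, whereas that of Rel with Nfkbia was 0.38 and 0.25. Tnfaip3 went with Rel at 0.93 and 0.65, Nfkbib at 0.84 and 0.65, Nfkbiz at 0.80 and 0.65, and Nfkbid at 0.33 and 0.04. The other subunits went with Rel at 0.89 and 0.81 (Relb), 0.83 and 0.74 (Nfkb2) and 0.65 and 0.69 (Rela). In the control, Tnfaip3, Nfkbib and Nfkbiz thus followed Rel more closely than Rela did. Nfkbid went with Nfkbia at 0.01 and -0.26. Among 2461 genes with at least 500 UMIs, those most like Rel by the smaller of its correlations in the libraries were Spag9, Hivep2, Erbin, Myo1e and Ifrd1, all above 0.91 in both. Those most like Nfkbia were Ppp1r15a, Atf3, Id2, Gadd45b and Cebpb, all at 0.92 or more. Ppp1r15a and Atf3 are stress response genes of the immediate early list, and Gadd45b stands on the list of NF-κB target genes. These correlations rest on 7 points that differ in depth and RNA make-up, and the highest of many genes are high by choice.

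Within the 7 clusters with at least 20 cells in each library, the library difference kept its direction for Nfkbia and not for the subunits. Nfkbia was higher in the 4E-BP1-cKO library in 7 of 7 clusters, with log2 ratios from 0.27 to 0.75 and a counting interval above a ratio of 1 in 6 of them. The summed inhibitors, which include Nfkbia, were also higher in 7 of 7 (0.19 to 0.72). Without Nfkbia they were higher in 6 of 7, with an interval above 1 in 4 and a log2 ratio of -0.05 in cluster 6. Nfkbib and Nfkbid were each higher in 5 of 7, and Tnfaip3 in 6 of 7. Nfkbiz was higher in 6 of 7, by up to 0.98 in cluster 1, and lower in cluster 6 (log2 ratio -0.44, interval below a ratio of 1). The summed subunits were higher in 5 of 7, with log2 ratios from -0.24 to 0.34. Nfkb1 was lower in the 4E-BP1-cKO cells of cluster 2, where it had its highest level, with 2595 CPM in the control and 1983 CPM in the 4E-BP1-cKO library (ratio 0.76, 0.69 to 0.85). It was higher in the other 6, with an interval above 1 in cluster 1 (ratio 1.39, 1.09 to 1.74). Weighted equally over the clusters, the log2 ratio was 0.50 for Nfkbia and 0.07 for the summed subunits, against 0.72 and 0.16 over all cells.

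**Figure D4:**
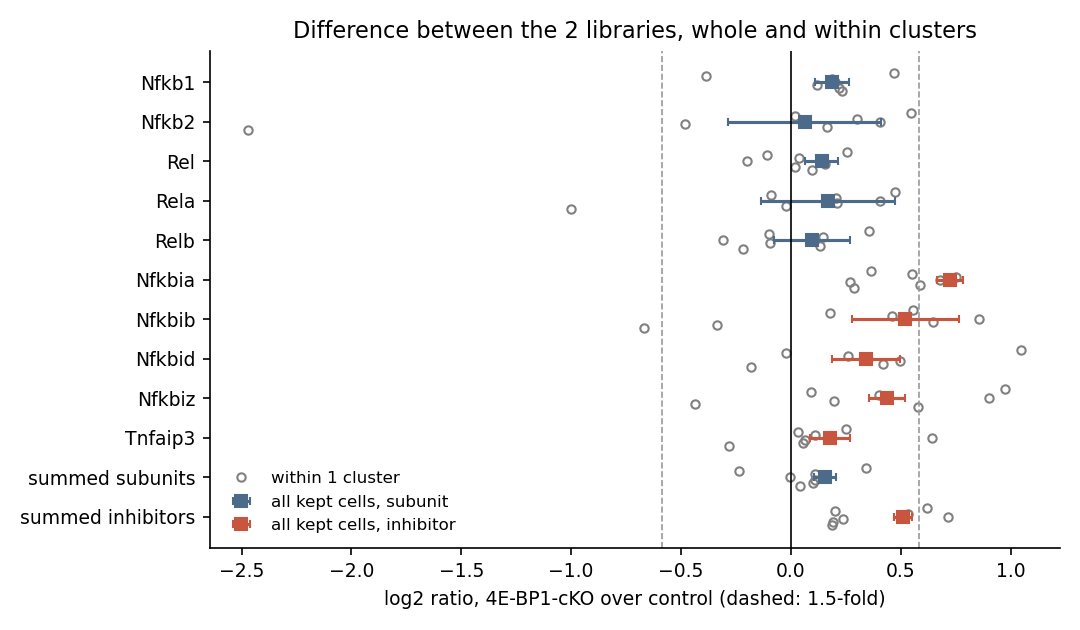
Log2 ratio of the 4E-BP1-cKO over the control library for each gene and for the summed roles. Squares are all kept cells with the counting interval, open circles are single clusters, and dashed lines mark 1.5-fold. Circles of Nfkbia lie on the right of 0 in 7 of 7 clusters, and the outlying circle of Nfkb2 rests on 1 UMI in the 4E-BP1-cKO cells of cluster 7.

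The cells of each library were also ranked by the share of their UMIs on the 25 early genes, none of which is among the 10. They were split into terciles, 3 groups of near-equal cell number. In the control, the summed inhibitors went from 1766 CPM in the lowest tercile (1696 to 1837) to 2707 CPM in the middle (2624 to 2791) and 4325 CPM in the highest tercile (4233 to 4419). The summed subunits had 2250, 2534 and 2363 CPM in the same terciles. In the 4E-BP1-cKO library the inhibitors had 2203, 4143 and 5992 CPM and the subunits 2186, 2828 and 2779 CPM. The fold of the highest over the lowest tercile was thus 2.45 (2.34 to 2.56) and 2.72 (2.53 to 2.93) for the inhibitors, and 1.05 (1.003 to 1.10) and 1.27 (1.17 to 1.38) for the subunits.

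Nfkbia led with 3.63-fold in the control (3.36 to 3.92) and 4.31-fold in the 4E-BP1-cKO library (3.83 to 4.86). Nfkbiz gave 1.96-fold (1.80 to 2.14) and 1.95-fold (1.70 to 2.24), and Tnfaip3 1.95-fold (1.78 to 2.14) and 1.97-fold (1.68 to 2.32). Rel gave 1.07-fold (0.998 to 1.14) and 1.12-fold. Nfkb1 gave 0.95-fold (0.88 to 1.02) in the control and 1.37-fold (1.21 to 1.56) in the 4E-BP1-cKO library. Rela, at few UMIs, gave 2.07-fold (1.52 to 2.87) and 1.39-fold (0.84 to 2.39). Nfkb2 gave 1.06-fold and 1.94-fold (1.04 to 3.83), and Relb 1.26-fold and 1.54-fold (1.16 to 2.07). More than 1.5-fold was passed by 4 of 5 inhibitors in each library, and by 1 of 5 subunits in the control and 2 of 5 in the 4E-BP1-cKO library. Over all genes tested outside the early gene list the share was 7.83% in the control and 13.7% in the 4E-BP1-cKO library, while 15.9% and 21.2% were past 1.5-fold lower, as were 0 of the 10 genes. Past 1.5-fold in either direction were 23.8% and 34.9%. Cells of the highest tercile were also deeper, with a median of 4203 UMIs against 2728 in the control and 3873 against 1964 in the 4E-BP1-cKO library. With every cell thinned to the same depth, the inhibitors gave 2.16-fold and 2.39-fold and the subunits 0.895-fold and 1.20-fold.

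**Figure D5:**
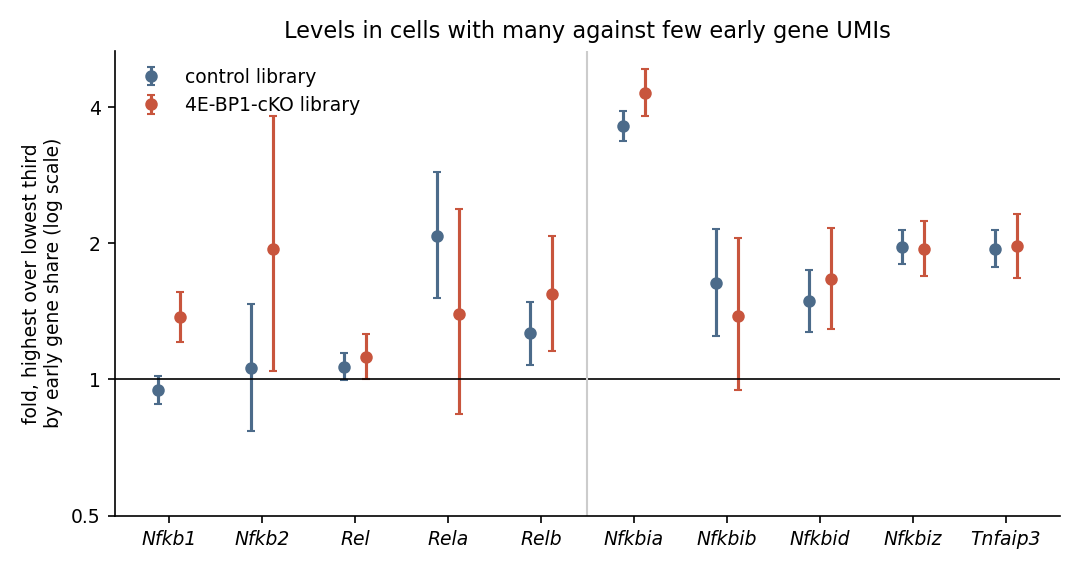
Fold of the highest over the lowest tercile of cells by early gene share (log axis) for each gene in each library, with exact 95% counting intervals. Nfkbia lies at 3.63 and 4.31, the other inhibitors lie between 1.38 and 1.97, and Rel lies near 1. Other subunits reach 2.07 (Rela in the control) and 1.94 and 1.54 (Nfkb2 and Relb in the 4E-BP1-cKO library).

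The share of ribosomal protein UMIs, which differed between the libraries, gave another split. Depth and microglial markers moved with it. The median cell of the highest against the lowest tercile had 5379 against 2846 UMIs in the control and 4768 against 2091 in the 4E-BP1-cKO library, and 8 and 6 of the 10 microglial markers were past 1.5-fold higher. Their part in the values that follow was not tested. The subunits had 0.79-fold of their level (0.76 to 0.83) in the highest over the lowest tercile by this share in the control and 0.77-fold (0.71 to 0.82) in the 4E-BP1-cKO library. The inhibitors had 1.62-fold (1.55 to 1.69) and 1.74-fold (1.63 to 1.86). This rested on Nfkbia, at 3.03-fold and 3.64-fold, since the inhibitors without it had 1.12-fold and 1.05-fold. Tnfaip3 had 0.94-fold and 0.92-fold. Past 1.5-fold higher (on CPM + 1) were 1 of 5 inhibitors and 0 of 5 subunits in each library, beside 23.8% and 24.6% of all genes tested outside the ribosomal list. Past 1.5-fold lower was 1 of the 10, Relb in the 4E-BP1-cKO library (0.59-fold), beside 26.0% of all genes in the control and 33.1% in the 4E-BP1-cKO library. In either direction the shares of all genes were 49.7% and 57.7%.

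The early gene share moved with the difference between the libraries. When both libraries were split at the same early gene shares, 44.3% of the 4E-BP1-cKO cells and 29.1% of the control cells fell in the highest tercile. In the lowest tercile the Nfkbia level was 591 CPM in the control and 666 CPM in the 4E-BP1-cKO library (ratio 1.13, 0.96 to 1.32). In the middle tercile it was 1072 and 1503 CPM (ratio 1.402, 1.29 to 1.53), and in the highest tercile 2180 and 3028 CPM (ratio 1.39, 1.32 to 1.46). The mean log2 ratio over these terciles was 0.38 for Nfkbia, 0.26 for the summed inhibitors and 0.09 for the summed subunits. Nfkbiz had 0.22 and Tnfaip3 0.03. Nfkbia thus no longer passed 1.5-fold, nor did it as the equal-weight mean over clusters (0.50). With terciles split at the same ribosomal protein shares, the means were 0.62, 0.48 and 0.19 for Nfkbia, the inhibitors and the subunits. Both splits were chosen after the values were seen, and the part of the early gene share in the difference between the libraries was not tested.

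The rest of the pathway was read from lists of receptors and adaptors, kinases, other inhibitors and ubiquitin enzymes, and target genes. Over all genes tested, 4.32% were past 1.5-fold higher and 11.3% lower in the 4E-BP1-cKO library, and the upstream lists are too short for their counts to be set apart from those shares. Of 27 receptors and adaptors, 1 was past 1.5-fold higher (Traf2, an adaptor of TNF receptors, log2 ratio 0.62) and 1 lower (Il1rap, a subunit of the IL-1 receptor, -0.66), with a median log2 ratio of 0.12. The receptor genes Cd14 and Tlr2, which sense bacterial lipopolysaccharide and lipoproteins, had 327 and 163 CPM in the control and 469 and 218 CPM in the 4E-BP1-cKO library (ratios 1.43 and 1.33). The ratios of the other most counted genes of the list were 1.06 for Traf3, 1.10 for Irak2 and 0.94 for Ripk2. Of 11 kinase genes, 0 were past 1.5-fold in either direction (median -0.04). Map3k8, the kinase TPL2, had 223 and 194 CPM, and Map3k14, the kinase NIK of the noncanonical pathway, had 87.4 and 95.1 CPM.

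Among 22 other inhibitors and ubiquitin enzymes, 0 were past 1.5-fold higher and 1 lower (Btrc, a subunit of the ligase that marks IκBα, log2 ratio -0.72), with a median of 0.04. Close relatives and partners of the 10 genes covered a range of levels. Nfkbie, which encodes IκBε, had 62.2 CPM in the control and 63.4 CPM in the 4E-BP1-cKO library, and Bcl3, a nuclear IκB, had 37.1 and 43.2 CPM. Tnip1 had 23.1 and 28.8 CPM, while Birc3, the ubiquitin ligase cIAP2, had 379 and 385 CPM.

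Of 35 target genes with at least 20 UMIs, 11 were past 1.5-fold higher and 0 lower in the 4E-BP1-cKO library, 31 had a log2 ratio above 0, and the median was 0.46. Among all 11784 genes tested, 4.32% were past 1.5-fold higher, 11.3% lower, and 5169 had a log2 ratio above 0. The target list was chosen with earlier results of these data known, so that its counts are descriptions. The chemokine genes Ccl4 (3082 and 5065 CPM) and Ccl3 (959 and 1589 CPM) had log2 ratios of 0.72 and 0.73, like Nfkbia. Cxcl2 had 1.01 and Ccl2 0.64. Il1a, which encodes interleukin-1α, had 522 and 752 CPM, while Plek had 2893 and 2998 CPM. Cxcl1, also among the 11, had 1 UMI in the control and 34 in the 4E-BP1-cKO library, a ratio of 94.2 with an interval from 15.8 to 3828. It rests on 3 cells, of which 1 held 31 of the 34 UMIs. Of the 25 immediate early genes, 5 were past 1.5-fold higher and 2 lower, with a median of 0.33. The 2 lower genes were the heat shock genes Hspa1a (1110 and 717 CPM) and Hspa1b (1452 and 562 CPM), which thus went the other way from Fos, Jun and Egr1 within the list that ranked the cells. Nfkbia and Tnfaip3, both classical targets, thus lay at 0.72 and 0.18 on the same scale, above and below the median of the target list. In the highest over the lowest tercile by early gene share, 14 of 34 target genes were past 1.5-fold higher and 4 lower in the control, beside 7.83% and 15.9% of all genes. In the 4E-BP1-cKO library 16 of 32 were higher and 1 lower, beside 13.7% and 21.2%.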

How the data were processed

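The authors made the deposited UMI counts per gene and cell from 10x 3′ libraries with Cell Ranger 8.0.1 on mm10. Whether intronic reads were counted is not given in these sources. From these counts, cells were taken as barcodes with over 300 genes and less than 5% of UMIs on mitochondrial genes. UMIs were summed per library and expressed as CPM. Doublets were called with scanpy 1.11.5 (4 control and 11 4E-BP1-cKO cells) and left in, except in one alternative. The paper removed doublets with another tool, scDblFinder, and kept fewer cells of each genotype than were used here. Intervals are 95% and exact (Poisson, Clopper-Pearson, or conditional Poisson for ratios), and cover counting error only. Log2 ratios used CPM + 1 and genes with at least 20 UMIs. The genotypes were not tested against each other, since each had 1 library.

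Cells were clustered with Seurat 5.3.0 (SCTransform, RPCA integration, 20 components, resolution 1.4) without the 10 genes. Terciles of cells were ranked within each library. The rule for named genes took the 10 genes, the 5 genes of each pathway list with the most UMIs, Nfkbie, Bcl3, Tnip1 and Birc3, and the 5 genes most like Rel and Nfkbia. Other genes past 1.5-fold (Traf2, Il1rap, Btrc, Cxcl1, Cxcl2, Ccl2, Hspa1a, Hspa1b, Tmem119) were named after their values were seen. The members and lists were chosen with earlier results of these data known. Alternatives included TMM factors of edgeR 4.0.16, other cell filters and other resolutions. Scripts were tested on simulated data. R 4.3.3, Python 3.11.15, scipy 1.17.1 and numpy 2.4.6 were used.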

Additional observations from a re-analysis of the deposited data

How the results depend on the processing

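No paired analysis was possible because each genotype had 1 library and no test was run, and leaving out a replicate was impossible for the same reason. The sign of the log2 ratio changed for Nfkb2 (-0.22 as the mean over clusters and -0.08 with shared early gene limits) and Relb (-0.01, -0.02 and, after thinning, -0.06), whose main intervals included no difference, and for no other of the 10 genes or sums. Of the recomputed values of the summed roles, 43 stayed within the counting interval and 33 moved out of it. With TMM factors the log2 ratios of the subunits and inhibitors were 0.21 and 0.57, as the mean over clusters 0.066 and 0.38, and as the mean over terciles with shared early gene limits, chosen after seeing the data, 0.089 and 0.26. Without Nfkbia the inhibitors had 0.33. The inhibitor UMIs per subunit UMI in the control and 4E-BP1-cKO library were 1.19 and 1.58 after thinning, 0.748 and 0.845 without Nfkbia, and 2.37 and 3.01 without Rel, and 1.26 in the control without Nfkbib. Without Nfkbia there were thus fewer inhibitor than subunit UMIs in both libraries.

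Across clusters the inhibitor fold was 3.22 in the 4E-BP1-cKO library alone, 3.07 with a total free of ribosomal and mitochondrial genes, 2.28 without Nfkbia, 2.72 with target and early genes also kept out of the clustering, and 3.16 at resolution 2.0. The subunit fold was 3.62 in the 4E-BP1-cKO library alone, 5.09 without Rel, 3.54 at resolution 0.8 and 6.08 at resolution 2.0. Across terciles in the control and 4E-BP1-cKO library, the inhibitor fold was 1.62 and 1.74 by ribosomal protein share, 2.16 and 2.39 after thinning, and 1.87 and 1.88 without Nfkbia. The subunit fold was 0.79 and 0.77 by ribosomal protein share, 0.895 after thinning in the control, and 1.42 without Rel in the 4E-BP1-cKO library. The subunit fold by tercile thus lay on either side of 1. The cause of these shifts was not tested.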

Other observations

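The barcodes left out by the filters, 69 in the control and 29 in the 4E-BP1-cKO library, held these genes in another proportion. Nfkb1 had 2095 CPM (1834 to 2383) on 232 UMIs in the control and 1573 CPM (1188 to 2043) on 56 UMIs in the 4E-BP1-cKO library, above its level in the kept cells of each. Nfkbia had 1291 CPM (1088 to 1521) and 1320 CPM (970 to 1756), and Nfkbid had 90.3 CPM (43.3 to 166) and 84.3 CPM (17.4 to 246). These barcodes entered no comparison of the main analysis, and those under 10% mitochondrial UMIs entered the alternative with that limit (1180 control and 456 4E-BP1-cKO cells).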
